A study of Danio rerio with 80 samples.

Results

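The genes *lyz* (ENSDARG00000057789), *myb* (ENSDARG00000053666), *lgals3bp.1* (ENSDARG00000040528) and *mmp13a* (ENSDARG00000012395) are 4 of the 32520 genes in a table of read counts from whole zebrafish embryos. They were picked by their identifiers as genes of myeloid cells and of the immune response, with their responses to the exposures already known. Their values against the controls and between compounds are therefore given as a description and carry no test. The comparison of 72 with 48 hours post fertilization (hpf) in control embryos was tested. Its control pools are also those that the exposures were set against, so this test is not fully independent of the choice of genes. The gene lists set beside the 4 genes were also chosen with earlier results of these data known. Calls and adjusted p-values of list genes after exposure or between compounds are therefore a description too, and not an independent test.

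Embryos of the 5D wild-type line were exposed in 96-well plates to benzo[a]pyrene with a methyl group at ring position 8 (8-MBaP), to its isomer with the methyl group at position 6 (6-MBaP) or to the unmethylated parent compound (BaP), each at 0.133, 1.33 or 13.3 µM, or to the solvent dimethyl sulfoxide (DMSO) alone as control. Living embryos were collected at 48 and 72 hpf in pools of 6, and 4 pools were sequenced in each of the 20 groups of compound, concentration and time, 80 libraries in all. The 4 pools, lettered A to D, were the ones with the most RNA, and every exposure of a time is set against the same 4 control pools. Each compound and concentration had a plate of its own and the controls had another, so that the plate and the exposure cannot be told apart. The labels do not describe the pools as separate clutches, and a p-value measures only the spread between pools.

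Lysozyme, the product of *lyz*, breaks down bacterial cell walls and is a granule enzyme of neutrophils and a marker of early myeloid cells in zebrafish larvae. *myb* encodes a transcription factor needed for blood stem and progenitor cells. *lgals3bp.1* belongs to the family of secreted galectin-3 binding proteins, which in mammals take part in innate immune responses and cell adhesion, and *mmp13a* encodes a matrix metalloproteinase, a collagenase-type enzyme that cuts extracellular matrix. At these ages the first neutrophils and macrophages of the larva are already present, and blood stem cells emerge from the wall of the aorta.

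The libraries held between 4838752 and 8779891 counted reads, with a median of 6467821. Values below are normalized counts, that is, counts scaled to a common library size by the trimmed mean of M-values (TMM), so that 1 unit is close to 1 read in an average library. The raw counts at 72 hpf and at 48 hpf were 48 to 245 and 281 to 882 reads for *lyz* and 29 to 85 and 26 to 66 reads for *myb*. They were 3 to 46 and 2 to 38 reads for *lgals3bp.1* and 5 to 60 and 1 to 90 reads for *mmp13a*. For *lgals3bp.1* and *mmp13a* a few reads therefore decide many of the single values. The exposures themselves were visible in *cyp1a*, the monooxygenase gene that these compounds induce through the aryl hydrocarbon receptor. At 48 hpf it lay between 5159 and 6410 normalized counts in the pools of 13.3 µM 8-MBaP, between 1581 and 2396 in those of 13.3 µM BaP and between 133.0 and 187.8 in those of 13.3 µM 6-MBaP, against 28.4 to 37.9 in control pools.

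At 48 hpf, *lyz*, *myb* and *lgals3bp.1* were lower and *mmp13a* was higher in embryos exposed to 13.3 µM 8-MBaP than in controls. *lyz* was 2.05-fold lower, *myb* 1.65-fold lower, *lgals3bp.1* 4.003-fold lower and *mmp13a* 4.92-fold higher. The order of size was different at 72 hpf, when *lgals3bp.1* and *mmp13a* still stood apart and the pools of *lyz* and *myb* overlapped the control pools.

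**Figure D1:**
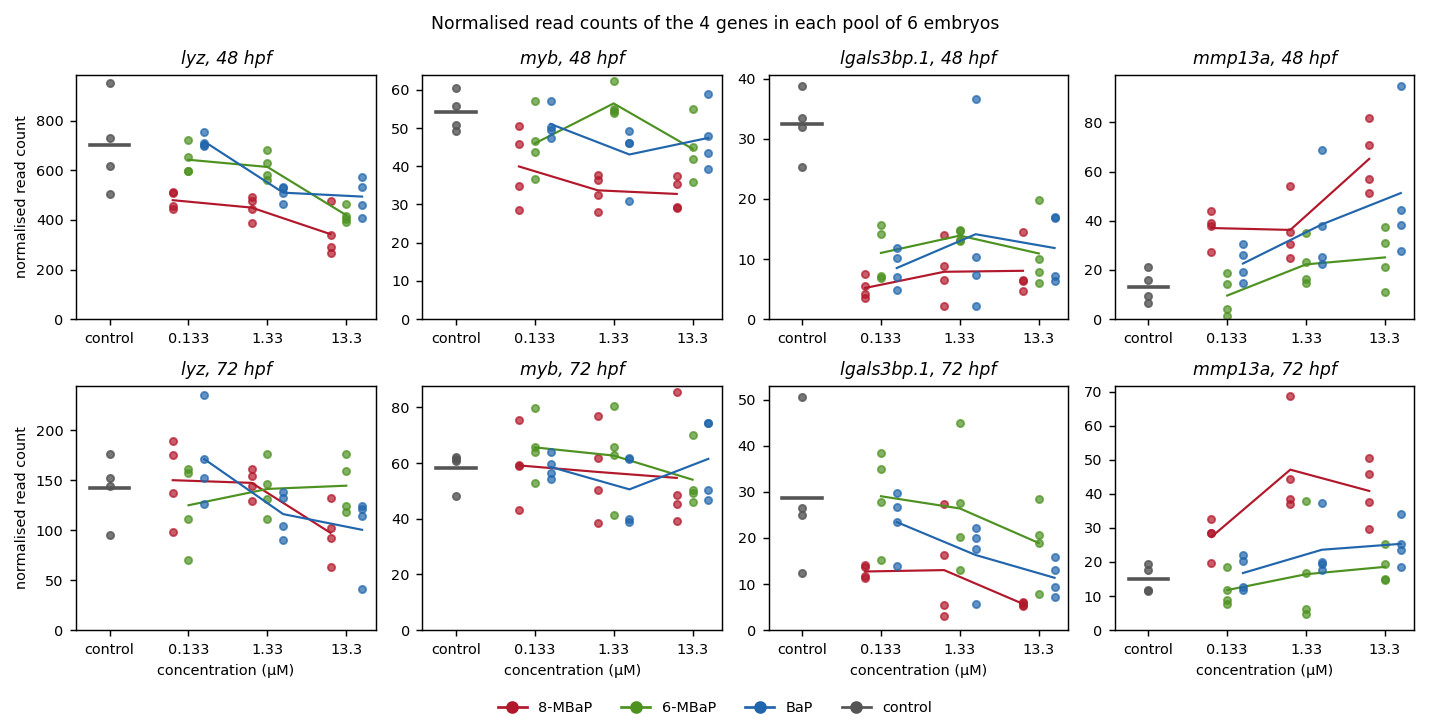
Normalized counts of *lyz*, *myb*, *lgals3bp.1* and *mmp13a* (vertical axes, linear, from 0) in each pool by concentration (horizontal axis, µM, evenly spaced, with the controls at the left) at 48 hpf and 72 hpf. Points are pools, coloured by compound and set side by side, lines join the means of each compound and the bar is the control mean, with n = 4 pools per group. At 48 hpf the 4 pools of 13.3 µM 8-MBaP lie between 266.8 and 475.9 for *lyz*, below every control pool, and between 51.3 and 81.7 for *mmp13a*, above every control pool.

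For *lyz* at 48 hpf, the pools of 13.3 µM 8-MBaP held 338.2, 475.9, 266.8 and 290.3 normalized counts, against 503.3, 952.2, 731.9 and 616.0 in control pools A to D. All 4 exposed pools lay below the lowest control pool. The means were 342.8 ± 93.6 and 700.8 ± 191.8 (SD, n = 4 each), a log2 difference of −1.04 ± 0.13 (SE). The lower concentrations of 8-MBaP gave 443.8, 455.5, 511.6 and 508.0 at 0.133 µM and 389.5, 474.9, 444.0 and 490.9 at 1.33 µM. At 1.33 µM all pools were under the control range, and at 0.133 µM 2 of the 4 were. The log2 differences from control were −0.55 ± 0.13 at 0.133 µM and −0.64 ± 0.13 at 1.33 µM.

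*lyz* was also low at the highest concentration of the other compounds. Its 4 pools at 13.3 µM 6-MBaP held 390.2, 402.6, 417.4 and 466.0 normalized counts, all below the lowest control pool, a log2 difference of −0.75 ± 0.13. At 13.3 µM BaP they held 460.0, 574.7, 409.6 and 532.6, with 2 pools below the control range and a difference of −0.51 ± 0.13. At 1.33 µM the difference was −0.46 ± 0.13 for BaP, in pools of 466.0 to 533.2, and −0.19 ± 0.12 for 6-MBaP, in pools of 563.1 to 681.0. At 0.133 µM the pools of 6-MBaP, 596.8 to 720.6, and of BaP, 697.4 to 754.2, lay wholly inside the control range. Over all 9 exposures at 48 hpf, 17 of the 36 exposed pools lay below every control pool for *lyz* and 0 lay above, and 3 of the 9 groups lay below as a whole. All 9 exposures share the same 4 control pools, and the share of such pools over all genes was not counted. Counts of pools or groups outside the control range are therefore only a description, here and below, for every gene. The control pools themselves were spread widely, with an SD of 191.8, while the SD of the pools of 0.133 µM BaP was 26.0.

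At 72 hpf the level of *lyz* in every pool was below the lowest pool of 48 hpf. Pools of 13.3 µM 8-MBaP held 102.4, 92.0, 62.8 and 132.1 normalized counts, against 144.4, 95.2, 176.7 and 152.4 in control pools, a log2 difference of −0.55 ± 0.23. The groups overlapped, since control pool B was lower than exposed pools A and D. At 0.133 and 1.33 µM 8-MBaP the differences were 0.08 ± 0.23 and 0.05 ± 0.23. At 13.3 µM BaP the pools held 41.6, 124.4, 121.0 and 114.5, and pool A was the lowest of all 80 libraries. Of the 36 exposed pools at 72 hpf, 5 lay below and 2 above every control pool.

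For *myb* at 48 hpf, pools of 13.3 µM 8-MBaP held 35.3, 29.0, 29.4 and 37.3 normalized counts, against 50.8, 60.5, 49.3 and 55.7 in control pools. The groups did not overlap, and the pools of each were close to each other. The means were 32.8 ± 4.2 and 54.1 ± 5.0 (SD, n = 4 each), a log2 difference of −0.72 ± 0.22. At 1.33 µM 8-MBaP the pools held 36.4, 32.6, 28.1 and 37.8, again all below the controls, with a difference of −0.68 ± 0.22. At 0.133 µM they held 45.8, 34.9, 50.5 and 28.6, and pool C lay inside the control range. The difference there was −0.44 ± 0.21.

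For 6-MBaP and BaP the *myb* pools at 48 hpf were nearer to the controls, partly inside and partly below their range. The log2 differences were −0.24 ± 0.21, 0.06 ± 0.21 and −0.28 ± 0.21 for 6-MBaP at 0.133 µM, 1.33 µM and 13.3 µM. They were −0.08 ± 0.21, −0.33 ± 0.21 and −0.19 ± 0.21 for BaP at the same concentrations. The 4 pools of 1.33 µM BaP, at 30.9 to 49.2, lay below the lowest control pool at 49.3, a gap that is much smaller than the spread within either group. In all, 25 of the 36 exposed pools were below every control pool and 1, pool D of 1.33 µM 6-MBaP at 62.3, was above.

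At 72 hpf the exposed pools of *myb* lay on both sides of the control range. The pools of 13.3 µM 8-MBaP held 85.5, 45.5, 39.0 and 48.7 normalized counts, against 60.6, 62.3, 61.3 and 48.3 in control pools. Exposed pool A was above and pools B and C were below all controls. The log2 difference was −0.09 ± 0.23, and it became −0.38 without exposed pool A and 0.05 without exposed pool C. Across the 9 exposures the differences ran from −0.18 ± 0.23 at 1.33 µM BaP to 0.18 ± 0.23 at 0.133 µM 6-MBaP, and 9 of the 36 exposed pools lay below and 13 above every control pool.

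*lgals3bp.1* was low in nearly every exposed pool at 48 hpf, whatever the compound or concentration. Pools of 13.3 µM 8-MBaP held 6.4, 14.5, 4.7 and 6.5 normalized counts, against 33.5, 38.9, 25.2 and 32.0 in control pools. Even the highest exposed pool was below the lowest control pool. The means were 8.05 ± 4.37 and 32.4 ± 5.6 (SD, n = 4 each), a log2 difference of −2.001 ± 0.50. At 0.133 µM 8-MBaP the pools held 4.2, 3.5, 7.5 and 5.5, and at 1.33 µM they held 2.1, 8.9, 14.0 and 6.4. The lowest concentration thus had the lowest mean of the 3, with log2 differences of −2.62 ± 0.53 at 0.133 µM and −2.03 ± 0.50 at 1.33 µM.

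*lgals3bp.1* was low after the other compounds too at 48 hpf. At 0.133 µM, 1.33 µM and 13.3 µM 6-MBaP the pools lay at 6.9 to 15.7, 13.0 to 14.8 and 6.0 to 19.8 normalized counts, all below the controls. The pools of BaP lay at 4.9 to 11.8 at 0.133 µM and 6.3 to 17.0 at 13.3 µM. At 1.33 µM BaP, pools B, C and D held 2.1, 7.4 and 10.3, while pool A held 36.7, inside the control range. That pool set the value of its group: the log2 difference was −1.18 ± 0.47 with it and −2.29 without it. Of the 36 exposed pools 35 were below every control pool, and 8 of the 9 groups were below as a whole. Since the 4 control pools come from 1 plate, a high level on that plate and a low level in all exposures cannot be told apart here.

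At 72 hpf the exposures differed more from each other in *lgals3bp.1*. Pools of 13.3 µM 8-MBaP held 5.3, 6.2, 5.4 and 6.0 normalized counts, against 50.7, 12.5, 26.6 and 24.98 in control pools. All exposed pools were at less than the lowest control, pool B, and lay within 1 count of each other. The means were 5.70 ± 0.45 and 28.7 ± 16.0 (SD, n = 4 each), a log2 difference of −2.29 ± 0.51. At 0.133 µM 8-MBaP the pools held 11.3, 11.8, 14.2 and 13.6, and at 1.33 µM 27.4, 16.2, 5.4 and 3.0, with differences of −1.16 ± 0.45 and −1.14 ± 0.44. At 13.3 µM BaP they held 13.0, 15.9, 7.2 and 9.3, a difference of −1.28 ± 0.45, and 2 pools were inside the control range. For 6-MBaP the differences were 0.03 ± 0.41, −0.10 ± 0.42 and −0.57 ± 0.42 at 0.133 µM, 1.33 µM and 13.3 µM. The number of exposed pools below every control was 12 of 36, against 35 of 36 at 48 hpf.

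*mmp13a* was the one gene of the 4 that was higher at 13.3 µM 8-MBaP. At 48 hpf the pools of 13.3 µM 8-MBaP held 70.6, 81.7, 57.0 and 51.3 normalized counts, against 21.1, 6.5, 16.1 and 9.5 in control pools. Even the lowest exposed pool was well above the highest control pool. The means were 65.2 ± 13.7 and 13.3 ± 6.6 (SD, n = 4 each), a log2 difference of 2.30 ± 0.42. At 0.133 µM 8-MBaP the pools held 27.2, 39.3, 44.0 and 37.8, and at 1.33 µM 35.3, 30.6, 24.8 and 54.3, all above the controls. The log2 differences were 1.49 ± 0.43 and 1.46 ± 0.43.

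*mmp13a* was also higher in BaP pools at 48 hpf. The pools of 13.3 µM BaP held 44.4, 27.5, 94.8 and 38.3 normalized counts, all above the controls, and the log2 difference was 1.958 ± 0.42. Pool C stood well above the other 3, and the SD of the group was 29.8. At 1.33 µM BaP the pools held 25.1, 22.5, 37.8 and 68.7, a difference of 1.53 ± 0.43, and at 0.133 µM 14.8 to 30.4, a difference of 0.77 ± 0.45. For 6-MBaP the pools of 13.3 µM held 21.0, 11, 37.6 and 30.8, a difference of 0.93 ± 0.44, and those of 0.133 µM 14.2, 18.8, 1.1 and 4.1, a difference of −0.43 ± 0.50. Over the 9 exposures 26 of the 36 exposed pools were above every control pool and 2 were below.

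The difference in *mmp13a* was also present at 72 hpf in 8-MBaP pools. At 13.3 µM they held 29.6, 50.6, 37.5 and 45.7 normalized counts, and at 1.33 µM 68.6, 37.0, 44.3 and 38.4, against 17.6, 11.6, 19.4 and 11.7 in control pools. Neither exposed group overlapped the controls, and the mean was higher at 1.33 µM, 47.1 ± 14.7, than at 13.3 µM, 40.8 ± 9.3 (SD, n = 4 each). The log2 differences were 0.86 ± 0.38, 1.64 ± 0.37 and 1.45 ± 0.37 at 0.133 µM, 1.33 µM and 13.3 µM. At 13.3 µM BaP the pools held 25.2, 23.4, 34.1 and 18.6, a difference of 0.77 ± 0.38, and at 13.3 µM 6-MBaP 19.4, 15.0, 25.2 and 14.7, a difference of 0.33 ± 0.39.

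**Figure D2:**
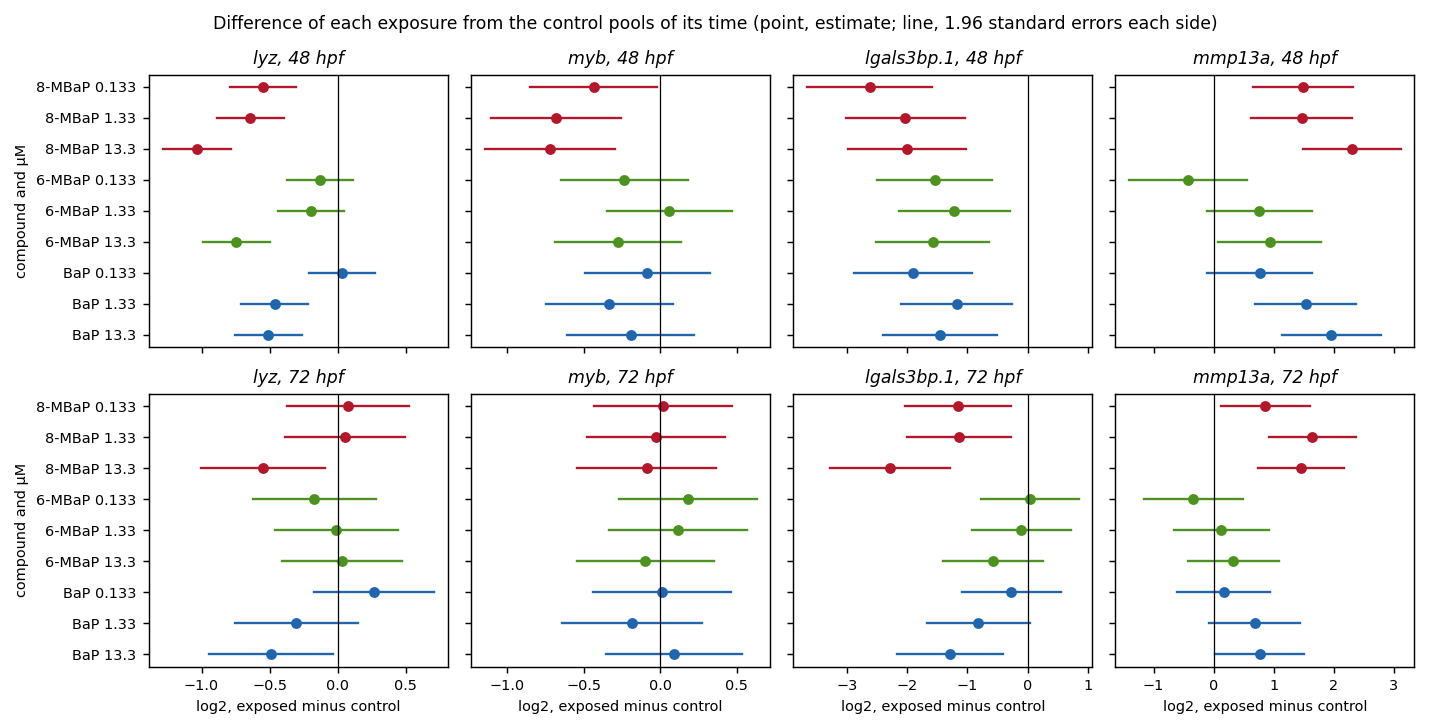
Log2 differences of the 4 genes from the control of the same time (horizontal axis) for the 9 exposures (vertical axis) at 48 and 72 hpf, with bars for approximate 95% intervals from the standard errors and a line at no difference. For *lgals3bp.1* at 48 hpf all 9 values lie between −2.62 and −1.18, and for *mmp13a* 8 of 9 lie above 0, up to 2.30 at 13.3 µM 8-MBaP.

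A gene was called where the Benjamini-Hochberg adjusted p of edgeR's quasi-likelihood test over all genes tested was 0.05 or less. At 48 hpf 17794 genes were tested, and 0.433%, 0.691% and 1.54% were called at 0.133 µM, 1.33 µM and 13.3 µM 8-MBaP, where 2, 2 and 3 of the 4 genes were among those called. These were *lyz* and *lgals3bp.1* at each concentration and *mmp13a* at 13.3 µM. At 13.3 µM BaP 0.343% of genes were called, *lyz* and *mmp13a* among them, and at 13.3 µM 6-MBaP 0.253%, *lyz* among them. At 0.133 and 1.33 µM 6-MBaP 0% were called, and at the same concentrations of BaP 0.0112% and 0.0843%, with none of the 4 genes. At 72 hpf 18423 genes were tested. The shares called were 0.277%, 0.923% and 2.47% for 8-MBaP at 0.133 µM, 1.33 µM and 13.3 µM, with 0, 1 and 2 of the 4 genes, namely *mmp13a* at 1.33 µM and *lgals3bp.1* and *mmp13a* at 13.3 µM. For BaP they were 0.0109%, 0.13% and 0.809% and for 6-MBaP 0.00543%, 0.00543% and 0.038%, with 0 of the 4 genes in each. *myb* was in none of these edgeR sets. The study itself used DESeq2, another test for count data, and fitted concentration curves only to genes called at 1 or more concentrations. It placed *myb* among the genes modelled to change at or below 1.33 µM 8-MBaP at 48 hpf. It reported reduced *myb* there and also with 2 other compounds, benzo[j]fluoranthene and benzo[k]fluoranthene. Whether the DESeq2 fits made here call *myb* against controls was not recorded. Because the genes were chosen with the comparisons to controls known, the counts of called genes describe the choice and nothing is read from them.

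Within 8-MBaP, the difference between the highest and the lowest concentration was of its own size for each gene. At 48 hpf *mmp13a* was higher by 0.81 ± 0.35 on the log2 scale and *lyz* differed by −0.49 ± 0.13 at 13.3 µM against 0.133 µM, while *myb* differed by −0.28 ± 0.22 and *lgals3bp.1* by 0.62 ± 0.58. At 72 hpf *lgals3bp.1* differed by −1.13 ± 0.54, *lyz* by −0.62 ± 0.23 and *mmp13a* by 0.59 ± 0.35. Of the steps given, that of *lyz* at 72 hpf was larger than the difference of the same gene from control at 13.3 µM, and the others were smaller. When the 10 groups of a time were ordered by their mean, neighbours in the order nearly always overlapped. Of 9 neighbouring pairs per gene and time, 1 did not overlap for *lyz* at 48 hpf, 1 did not for *lgals3bp.1* at 72 hpf, and every pair overlapped in the other 6 orders.

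The 3 compounds were set against each other at the same concentration and time in 18 pairs, as values with an approximate 95% interval from the standard error. For *lyz* at 48 hpf, the log2 difference of 8-MBaP from BaP was −0.58 (−0.82 to −0.34) at 0.133 µM and −0.53 (−0.78 to −0.27) at 13.3 µM and −0.18 (−0.43 to 0.07) at 1.33 µM. The 4 pools of 0.133 µM 8-MBaP, at 443.8 to 511.6, lay well under those of 0.133 µM BaP, at 697.4 to 754.2, in a contrast where 0.365% of all genes were called. Against 6-MBaP, *lyz* in 8-MBaP pools differed by −0.42, −0.45 and −0.29 in order of concentration. The difference of 8-MBaP from 6-MBaP at 13.3 µM and 72 hpf was −0.58 (−1.04 to −0.12), and the other 5 differences of 8-MBaP at that time lay between −0.19 and 0.36.

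*mmp13a* was higher in 8-MBaP than in 6-MBaP pools at each concentration and time. At 48 hpf it was higher in 8-MBaP than in 6-MBaP pools by 1.91 (1.04 to 2.79) on the log2 scale at 0.133 µM and 1.36 (0.65 to 2.07) at 13.3 µM, and by 0.71 (−0.05 to 1.46) at 1.33 µM. At 72 hpf the same difference was 1.199 (0.41 to 1.99), 1.52 (0.79 to 2.25) and 1.12 (0.43 to 1.82) in order of concentration, and the value at 1.33 µM became 2.39 without pool C of 6-MBaP. Against BaP, 8-MBaP differed by 0.72 (−0.03 to 1.46), −0.07 (−0.78 to 0.65) and 0.34 (−0.33 to 1.01) at 48 hpf, with intervals that allow differences of more than 1 log2 unit at the lowest and highest concentrations. At 72 hpf the values were 0.70 (−0.04 to 1.44), 0.96 (0.28 to 1.64) and 0.69 (0.01 to 1.36). The differences of 6-MBaP from BaP at 48 hpf were −1.199, −0.77 and −1.02 at the 3 concentrations.

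For *lgals3bp.1* the intervals between compounds were wide. At 48 hpf the 9 differences ran from −1.08 (−2.19 to 0.03) for 8-MBaP against 6-MBaP at 0.133 µM to 0.35 (−0.69 to 1.40) for 6-MBaP against BaP at 0.133 µM. Without pool A of BaP at 1.33 µM, the value for 6-MBaP against BaP was 1.07 in place of −0.04 and that for 8-MBaP against BaP was 0.25 in place of −0.85. At 72 hpf 8-MBaP differed from 6-MBaP by −1.19 (−2.08 to −0.30), −1.03 (−1.91 to −0.15) and −1.71 (−2.73 to −0.70) at 0.133 µM, 1.33 µM and 13.3 µM. Against BaP it differed by −0.89 (−1.78 to 0.01), −0.32 (−1.23 to 0.59) and −1.003 (−2.06 to 0.05). *myb* differed between 8-MBaP and 6-MBaP by −0.74 (−1.16 to −0.32) at 1.33 µM and 48 hpf, where the pools lay at 28.1 to 37.8 and at 53.9 to 62.3 and did not overlap. In that contrast 0.506% of all genes were called, and *myb* was not among them. At 13.3 µM *myb* differed between 8-MBaP and BaP pools at 48 hpf by −0.53 (−0.96 to −0.10), and at 72 hpf its 9 differences lay between −0.19 and 0.30.

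**Figure D3:**
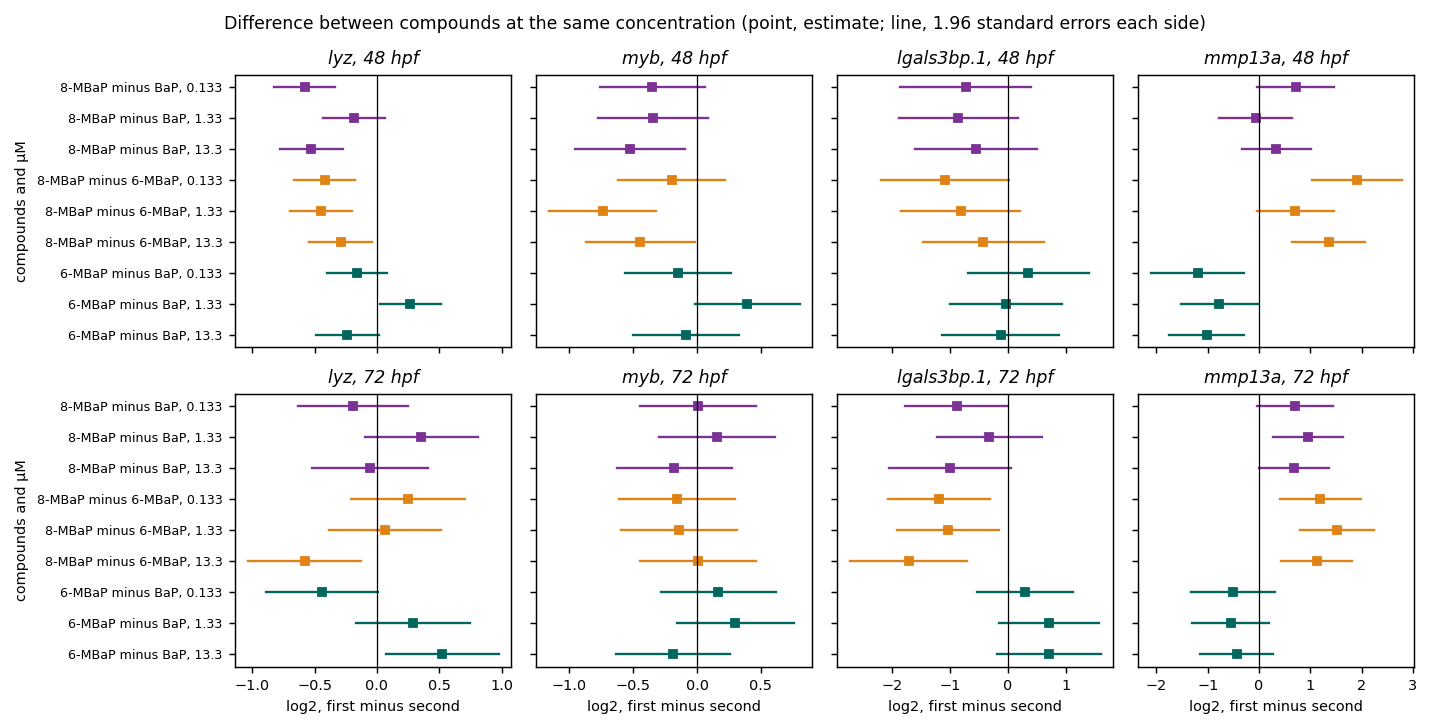
Log2 differences between compounds at the same concentration (horizontal axis) for the 4 genes at 48 and 72 hpf, with bars for approximate 95% intervals from the standard errors; each difference is the compound named first minus the other. For *mmp13a* the 6 values of 8-MBaP against 6-MBaP lie between 0.71 and 1.91, and for *myb* at 72 hpf the 9 values lie between −0.19 and 0.30.

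In control embryos *lyz* fell between the times. It held 144.4, 95.2, 176.7 and 152.4 normalized counts in the 72 hpf control pools, against 503.3, 952.2, 731.9 and 616.0 in the 48 hpf control pools. The ranges did not touch, and the means were 142.2 ± 34.2 and 700.8 ± 191.8 (SD, n = 4 each). The log2 difference was −2.31 ± 0.19, a 4.95-fold lower level at 72 hpf, with an adjusted p of 1.1e-18 in edgeR's quasi-likelihood test over 19211 genes, of which 22.7% were called in this comparison, 10.2% lower and 12.5% higher at 72 hpf. The other 3 genes did not pass: *myb* differed by 0.10 ± 0.22 (edgeR, adjusted p = 0.81), *lgals3bp.1* by −0.19 ± 0.44 (edgeR, adjusted p = 0.82) and *mmp13a* by 0.18 ± 0.46 (edgeR, adjusted p = 0.84). The intervals around these values are wide for *lgals3bp.1* and *mmp13a*, whose direction turned when a single control pool was left out. Without control pool B of 72 hpf *lgals3bp.1* was at 0.05, and without control pool B of 48 hpf *mmp13a* was at −0.06.

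The exposed groups had the same direction for *lyz*, as a description. The difference of 72 from 48 hpf lay between −2.35 ± 0.19 at 0.133 µM 6-MBaP and −1.53 ± 0.19 at 13.3 µM 6-MBaP, and for 8-MBaP it was −1.68, −1.61 and −1.83 at 0.133 µM, 1.33 µM and 13.3 µM. *myb* was higher at 72 than at 48 hpf by 0.56 ± 0.22, 0.75 ± 0.22 and 0.72 ± 0.23 in 8-MBaP embryos at the 3 concentrations. Its mean was also higher at 72 hpf in every group of 6-MBaP and BaP. At 0.133 µM 6-MBaP it was 65.6 at 72 hpf and 46.0 at 48 hpf, and at 13.3 µM BaP 61.5 and 47.4. Among exposed groups *lgals3bp.1* ranged from −0.48 ± 0.58 at 13.3 µM 8-MBaP to 1.43 ± 0.50 at 0.133 µM BaP.

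Other neutrophil genes were followed from a list of 16 identifiers, of which 15 could be tested over time. In controls 4 of the 15 passed the edgeR test, beside 22.7% of all genes, a share that is close to that of the list. The counterpart of human *EPX* (ENSDARG00000019521, the zebrafish myeloid peroxidase *mpx*), a granule enzyme of neutrophils, was at 19.98 ± 2.1 normalized counts at 72 hpf and 73.7 ± 21.0 at 48 hpf (SD, n = 4 each), a log2 change of −1.88 ± 0.32 with an adjusted p of 7.8e-07. Both genes named after human *CXCR4*, the receptor that holds leukocytes in blood-forming tissue, fell by 1.57 ± 0.32 and 0.90 ± 0.30 on the log2 scale, with edgeR adjusted p-values of 3.2e-05 and 0.018. *cyba*, a subunit of the oxidase that makes reactive oxygen, rose by 0.66 ± 0.20 (edgeR, adjusted p = 0.0079). The median of the list was −0.55, and that of all genes tested was 0.02. The protease gene *npsn*, another neutrophil marker, was at 59.2 ± 15.0 and 86.2 ± 9.2 normalized counts at 72 and 48 hpf and did not pass (edgeR, adjusted p = 0.072).

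After exposure the neutrophil list did not follow *lyz* gene by gene. At 48 hpf 0 of its 14 tested genes were called at 13.3 µM 8-MBaP by edgeR, with 5 at an unadjusted p under 0.05, and the median log2 difference was −0.06. The share of all genes at an unadjusted p under 0.05 was not counted. No excess is therefore read from such counts, here or for the lists below. The *EPX* counterpart was at 46.5 ± 18.7 normalized counts in pools of 13.3 µM 8-MBaP and 73.7 ± 21.0 in control pools, and *npsn* at 62.6 ± 27.4 and 86.2 ± 9.2 (SD, n = 4 each), and the pools of the groups overlapped for both. The summed level of the 16 genes lay at 527.3 to 556.6 in the exposed pools and 520.3 to 610.3 in control pools. That sum also holds the counterpart of *MMP9*, a gelatinase gene that injured epithelium makes too. It was at 19.7 to 56.0 in exposed and 11.8 to 18.4 in control pools. A level sum therefore does not mean that its single genes were level. At 72 hpf the sum was 481.9 to 538.0 and 390.6 to 523.0. Of the 16 genes 1 or 2 were at 0 in every pool of these groups, and *CSF3R*, the receptor for a neutrophil growth factor, was at 0 in all 4 pools of 13.3 µM 8-MBaP at 48 hpf and averaged 0.93 in controls. In whole embryos, fewer cells of a type and less RNA per cell cannot be told apart.

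**Figure D4:**
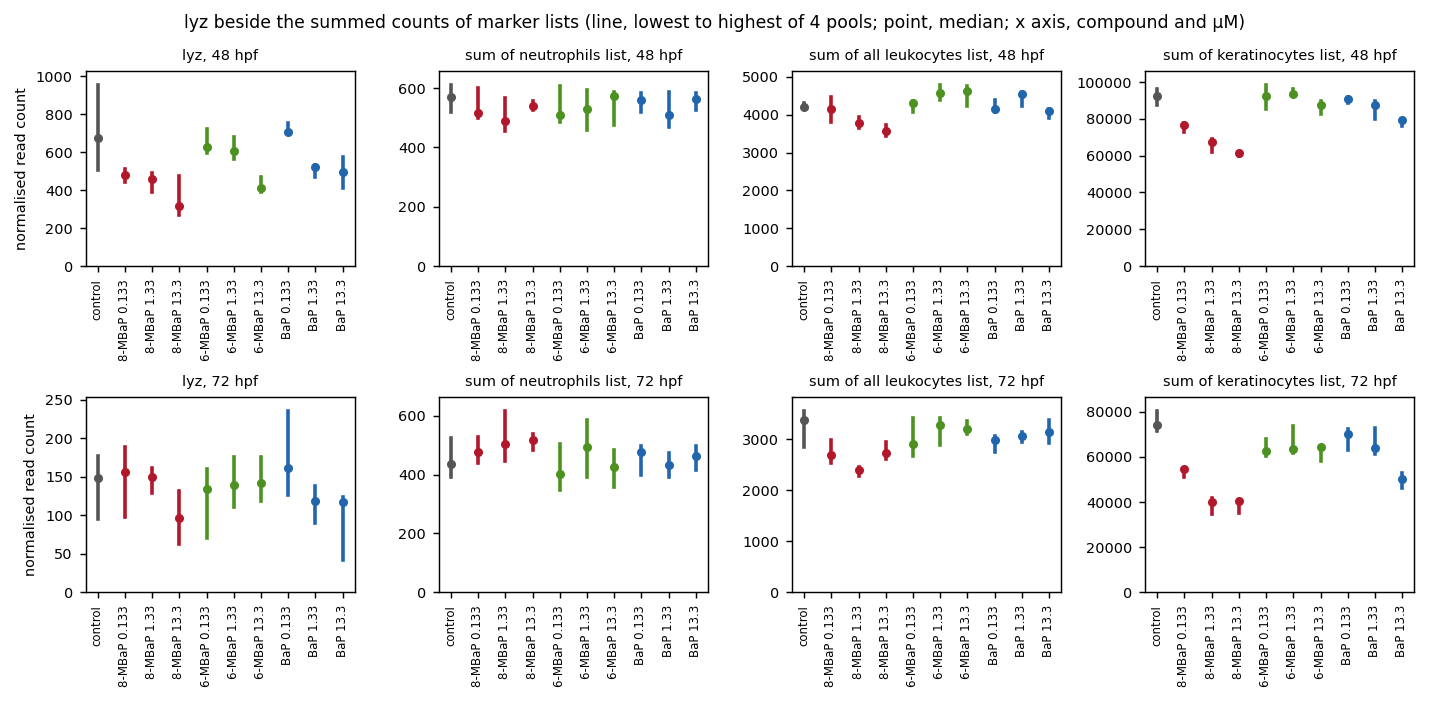
Normalized counts of *lyz* and summed normalized counts of marker lists (vertical axes, linear, from 0) in the 10 groups of each time (horizontal axis), drawn as the range of the 4 pools with the median. At 48 hpf *lyz* is lowest at 13.3 µM 8-MBaP, the neutrophil sum there, 527.3 to 556.6, lies inside the control range, and the keratinocyte sum, 59605 to 62158, lies below it.

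Markers of other cells moved with some of these values. The sum of 21 macrophage genes was 359.8 to 435.5 at 13.3 µM 8-MBaP and 357.0 to 450.1 in controls at 48 hpf, and 403.0 to 500.7 and 474.3 to 507.7 at 72 hpf. The 15 genes of all leukocytes summed to 3436 to 3732 and 4179 to 4313 at 48 hpf. Most of that difference lay in 1 gene, the counterpart of *COTL1*, an actin-binding protein that many tissues make, which averaged 2943 in exposed and 3565 in control pools. The keratinocyte sum differed far more. Over 10 genes it was 59605 to 62158 at 13.3 µM 8-MBaP and 87406 to 95988 in controls at 48 hpf, and 34975 to 41107 and 71330 to 80153 at 72 hpf. Most of that difference lay in *krt4*. This gene averaged 42513 in exposed and 67805 in control pools at 48 hpf, and 19618 and 49563 at 72 hpf. Of the 10 genes 4 were called lower at 48 hpf and 3 at 72 hpf, beside 0.77% and 1.26% of all genes, *krt4* among them with log2 changes of −0.67 ± 0.06 and −1.33 ± 0.08 (edgeR, adjusted p = 1.8e-13 and 1.6e-19). This list was chosen with earlier results known, so its calls are a description. *lgals3bp.1*, at both times, and *lyz*, at 48 hpf, were low in the same pools of 13.3 µM 8-MBaP, and the part of the epidermis in these values was not tested. At 13.3 µM 6-MBaP, where *lyz* was low at 48 hpf as well, the keratinocyte sum was 82618 to 89665 and overlapped that of controls. *krt4* was not alike in the groups with lower *lyz* at 48 hpf. Against 62744 to 71330 in controls, its pools lay below at 55868 to 59625 for 13.3 µM BaP. They were also below at 0.133 and 1.33 µM 8-MBaP, at 53332 to 55470 and 43161 to 48698. At 1.33 µM BaP (60171 to 67984) and 13.3 µM 6-MBaP (62436 to 67683) they overlapped the controls. Sums of blood progenitor, endothelial and erythroid genes at 13.3 µM 8-MBaP overlapped those of controls at 72 hpf, and the endothelial and erythroid sums did so at 48 hpf. The blood progenitor sum at 48 hpf was 1809 to 2008 and 1586 to 1792, but *MEIS1* and *CEBPB*, which many tissues make, held most of it, with means of 1083 and 272.2 over all libraries. At 13.3 µM 8-MBaP and 48 hpf edgeR called 0 of the 13 blood progenitor genes tested, with 2 at an unadjusted p under 0.05, and their median log2 difference was −0.12.

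Relatives of *lyz*, *myb* and *lgals3bp.1* were read the same way, from a list that also holds galectin genes. *lgals3bp.2* is the coding gene next to *lgals3bp.1* on chromosome 3 of the GRCz12tu assembly. The sequences of the neighbours were not compared, and whether they share reads was not tested. At 1.33 µM 8-MBaP and 48 hpf *lgals3bp.2* held 0.0, 6.9, 4.3 and 5.5 normalized counts, against 22.3, 18.4, 20.6 and 19.0 in control pools. It fell by 2.20 ± 0.61 on the log2 scale (edgeR, adjusted p = 0.047). That was its only call among the 18 exposure contrasts. At 48 hpf its pools held 8.6, 17.6, 1.9 and 14.9 at 13.3 µM 8-MBaP and 6.8, 19.2, 7.5 and 19.4 at 0.133 µM. It was below every control pool in 28 of the 36 exposed pools at 48 hpf and above every one in 5, and below in 23 of 36 at 72 hpf. *lgals3bp.3*, the gene beyond it, reached at most 8.4 normalized counts in any pool. Of the galectin genes, *lgals1l1* rose to 4639 ± 1509 normalized counts at 13.3 µM 8-MBaP, against 1497 ± 142 in controls, at 48 hpf (log2 1.63 ± 0.26, edgeR, adjusted p = 3.0e-05), and *lgals3b* fell by 0.58 ± 0.16 at 72 hpf (edgeR, adjusted p = 0.031). At 13.3 µM 8-MBaP 1 of the 10 list genes tested at 48 hpf and 1 of the 9 tested at 72 hpf were called. These were the galectin genes *lgals1l1* and *lgals3b*, beside 1.54% and 2.47% of all genes called. At an unadjusted p under 0.05 were 2 and 4 of the list genes. The goose-type lysozyme gene *lygl1* was not called against controls, at 62.4 ± 18.3 and 44.6 ± 5.1 normalized counts in exposed and control pools at 48 hpf (SD, n = 4 each). The *myb* relative *MYBL1*, also not called, was at 40.5 ± 2.4 and 58.9 ± 7.0, and its pools did not overlap. Between compounds at 1.33 µM and 48 hpf, *lygl1* was at 29.6 ± 7.7 in 8-MBaP and 64.4 ± 14.0 in 6-MBaP pools. That log2 difference was −1.13 ± 0.28 (edgeR, adjusted p = 0.030).

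Of the metalloproteinase list, which does not hold *mmp13a*, 18 genes were tested at 48 hpf and 17 at 72 hpf. The list was not limited to the enzymes, since the inhibitor *timp3*, which found no match, was also in it. At 13.3 µM 8-MBaP edgeR called 0 of them at either time, with 3 and 4 at an unadjusted p under 0.05, and the medians were 0.16 and 0.17, beside 0.0016 and −0.0044 for all genes. The counterpart of *MMP9*, a gelatinase of neutrophils and injured epithelium, was called at 1.33 µM 8-MBaP and 72 hpf. It held 26.3, 35.5, 35.3 and 93.0 normalized counts there, against 4.4, 16.0, 3.1 and 9.2 in control pools, and rose by 2.48 ± 0.44 on the log2 scale (edgeR, adjusted p = 1.0e-04). The ranges did not overlap, and pool D stood well above the other exposed pools. At 13.3 µM 8-MBaP it was at 38.7 ± 15.1 and 14.7 ± 3.1 at 48 hpf and at 18.4 ± 7.2 and 8.16 ± 5.85 at 72 hpf in exposed and control pools (SD, n = 4 each).

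The wider myeloid and immune system was followed in 9 lists with 180 identifiers, without the 4 genes, of which 125 were tested at 48 hpf and 128 at 72 hpf. edgeR called 0, 1 and 4 of the 125 at 0.133 µM, 1.33 µM and 13.3 µM 8-MBaP at 48 hpf, with 12, 11 and 26 at an unadjusted p under 0.05, and 0, 3 and 8 of the 128 at 72 hpf, with 11, 22 and 29. The counts at an unadjusted p have no share over all genes beside them, and no excess is read from them. The lists were chosen with earlier results known, so the calls are a description as well. The 4 at 48 hpf were 2 higher and 2 lower, beside 0.77% of all genes in each direction, and the 8 at 72 hpf 5 higher and 3 lower, beside 1.21% and 1.26%. The count of 4 became 2 without pool A of 13.3 µM 8-MBaP, and the count of 8 became 5 without its pool C and 4 without its pool D. At 13.3 µM BaP 0 were called at 48 hpf, with 11 at an unadjusted p under 0.05, and 1 at 72 hpf, and the 1 was lost without BaP pool B, C or D or control pool A or C. At 13.3 µM 6-MBaP 0 were called at either time, with 10 and 12 at an unadjusted p under 0.05. DESeq2 called 0 at 13.3 µM 6-MBaP and BaP at both times. The median log2 difference of the lists at 13.3 µM 8-MBaP was 0.0048 at 48 hpf and 0.15 at 72 hpf, beside 0.0016 and −0.0044 over all genes tested.

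Of the 4 immune genes called at 13.3 µM 8-MBaP and 48 hpf, 3 came from the list of cytokines and inflammation. *cxcl8a*, which attracts neutrophils, fell to 5.94 ± 2.07 normalized counts at 13.3 µM 8-MBaP, against 28.9 ± 9.5 in controls (SD, n = 4 each), by 2.26 ± 0.42 on the log2 scale (edgeR, adjusted p = 1.1e-04). At 1.33 µM it fell by 1.49 ± 0.38 (edgeR, adjusted p = 0.026). *cxcl18b*, another chemokine, rose to 58.0 ± 17.2, against 18.8 ± 8.7 in controls, a log2 change of 1.63 ± 0.36 (edgeR, adjusted p = 0.0042). The counterpart of *SOCS3*, an inhibitor of cytokine signalling, rose at both times, by 0.87 ± 0.22 at 48 hpf (edgeR, adjusted p = 0.020) and by 1.42 ± 0.22 at 72 hpf, where it was at 176.7 ± 57.1 and 65.8 ± 15.1 in exposed and control pools (edgeR, adjusted p = 5.6e-06). The *COTL1* counterpart fell by 0.28 ± 0.07 at 48 hpf and 0.31 ± 0.08 at 72 hpf at 13.3 µM 8-MBaP (edgeR, adjusted p = 0.019 and 0.025). Its fall at 72 hpf was larger at 1.33 µM 8-MBaP, 0.59 ± 0.08 (edgeR, adjusted p = 1.7e-06).

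At 72 hpf and 13.3 µM 8-MBaP the other called genes were spread over several lists. Both *CXCR4* counterparts rose, ENSDARG00000041959 by 1.11 ± 0.33 (edgeR, adjusted p = 0.049) and ENSDARG00000057633 by 1.28 ± 0.32 (edgeR, adjusted p = 0.013). The counterpart of *CEBPB*, a transcription factor of myeloid cells and of the acute phase, rose by 0.65 ± 0.15 (edgeR, adjusted p = 0.0043), and that of *PTGS2*, the inducible cyclooxygenase, by 1.36 ± 0.39 (edgeR, adjusted p = 0.039). The chemokine *ccl34b.1*, a marker of macrophages and microglia, fell to 19.7 ± 13.0, against 62.2 ± 9.6 in controls (SD, n = 4 each), by 1.62 ± 0.32 (edgeR, adjusted p = 3.9e-04), and it was the gene called at 13.3 µM BaP, where it fell by 1.18 ± 0.30 (edgeR, adjusted p = 0.039). At 1.33 µM 8-MBaP and 72 hpf *ccl34b.1* fell by 1.68 ± 0.32 (edgeR, adjusted p = 4.8e-04). *cfd*, the protease that starts the alternative complement pathway, fell by 1.01 ± 0.23 (edgeR, adjusted p = 0.0031). Of 15 interferon response genes edgeR called 0 at 72 hpf, with 5 at an unadjusted p under 0.05, and their median log2 difference was 0.67. Of the most abundant genes of the lists, *CEBPB* and *COTL1* were among those called. *rac2*, a GTPase of leukocytes, differed by 0.10 ± 0.13 at 48 hpf and 0.29 ± 0.13 at 72 hpf, and *LECT2*, a neutrophil chemotaxis factor, by −0.19 ± 0.18 and −0.09 ± 0.22 (edgeR, adjusted p between 0.33 and 0.93). *b2m*, a subunit of class I histocompatibility molecules, was higher by 1.02 ± 0.30 at 48 hpf and did not pass (edgeR, adjusted p = 0.067).

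**Figure D5:**
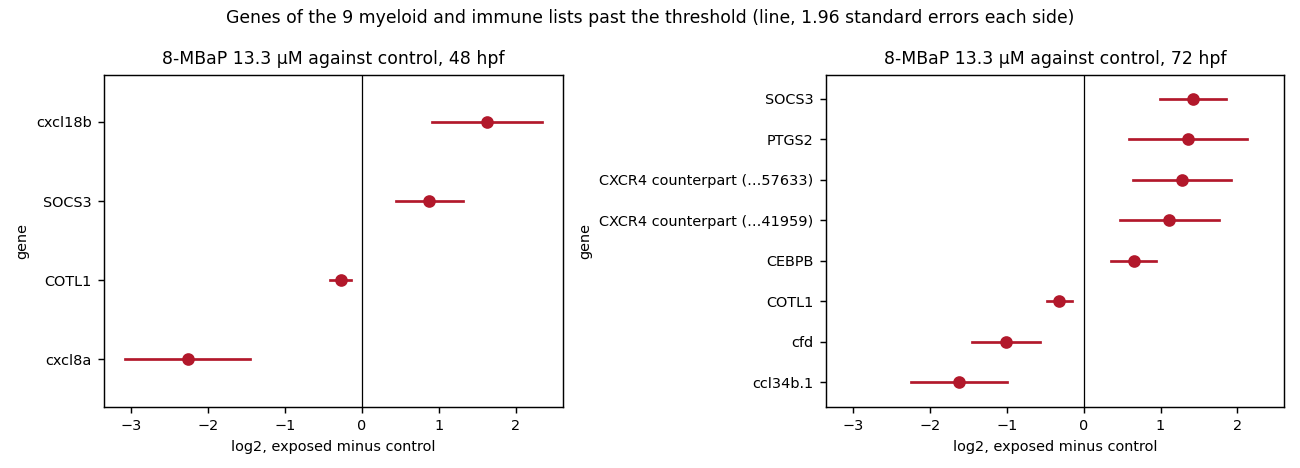
Log2 differences from the control of the same time (horizontal axis) for the myeloid and immune list genes called at 13.3 µM 8-MBaP (vertical axis), at 48 and 72 hpf; bars are approximate 95% intervals from the standard errors. *cxcl8a* at 48 hpf lies at −2.26 and *SOCS3* at 72 hpf at 1.42.

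Between compounds at 13.3 µM, edgeR called 5 of the 125 immune list genes for 8-MBaP against 6-MBaP at 48 hpf, where 0.731% of all genes were called, and 4 of the 128 at 72 hpf, where 1.37% were. Against BaP 1 and 3 were called, beside 0.815% and 0.814% of all genes. *cxcl8a* in 8-MBaP pools at 48 hpf differed from 6-MBaP and BaP pools by −2.18 ± 0.41 and −1.80 ± 0.42 (edgeR, adjusted p = 2.9e-04 and 0.011), and *SOCS3* was higher at 72 hpf, by 1.25 ± 0.21 and 1.15 ± 0.21 (edgeR, adjusted p = 7.2e-05 and 5.1e-04). These counts are small, and single pools moved them. Against 6-MBaP, the 5 at 48 hpf became 2 or 3 without 8-MBaP pool A, B or C or 6-MBaP pool A, C or D, and the 4 at 72 hpf became 2 without 8-MBaP pool B or D or 6-MBaP pool D. The 1 against BaP at 48 hpf became 0 without pool B of either compound.

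For each of the 4 genes the most similar patterns were looked for by Pearson's r of log2 CPM (counts scaled by library size) over the 80 libraries among 13006 genes, after the mean of each time was removed. The libraries share exposure groups, so that genes that respond to the same compound are alike by this measure. *mmp13a* was most like *cyp1a* (r = 0.73), the counterpart of *FOXQ1* (0.72) and *sult6b1* (0.69), and *lyz* was most like the counterparts of *CALM2* (0.67) and *SUB1* (0.62) and the epidermal gene *scel* (0.63). For *lgals3bp.1* the leading genes were *fxyd11*, the *CRYBA2* counterpart and the keratin *cyt1* (0.59, 0.59 and 0.58), and for *myb* the counterparts of *YBEY* and *AQP3* and *apoa4b.1* (0.50, 0.45 and 0.49). Among the 4 genes themselves, *lyz* and *lgals3bp.1* were at 0.41, *lyz* and *myb* at 0.32, and *mmp13a* was at −0.34 with *lyz* and −0.40 with *lgals3bp.1*.

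When the mean of each group was removed instead, which leaves the spread among pools of the same treatment, the 6 pairs of the 4 genes lay between −0.09 and 0.29, the highest for *lyz* with *lgals3bp.1*. *scel* was again the leading gene for *lyz* (0.52), before *icn* (0.49) and the *NMT1* counterpart (0.49). For *myb* the counterpart of *YBEY* led again (0.51), before a noncoding (linc) gene (0.48) and the *NCOA3* counterpart (0.47). *mmp13a* was then most like the *TBKBP1* counterpart (0.49), *wfdc2* (0.48) and the *EML3* counterpart (0.43), and *lgals3bp.1* most like those of *SDHAF3* (0.49), *SOD1* (0.45) and *MRPS11* (0.45). These values were picked as the highest of 13006, come from the same libraries as the first measure and were not tested. With the group means removed, the 99th percentile of r was 0.35 for *lyz*, 0.30 for *myb*, 0.33 for *lgals3bp.1* and 0.29 for *mmp13a*. With only the mean of each time removed, it was 0.46, 0.33, 0.41 and 0.40 in the same order. The neutrophil gene *EPX* was at 0.36 with *lyz* before and 0.37 after the group means were removed, and *npsn* at 0.33 and 0.28, the highest of the 9 neutrophil list genes with enough counts. The other 7 lay between −0.23 and 0.18 before and −0.10 and 0.14 after. Genes of the other myeloid lists reached values as high with *lyz*, such as *ccl34b.1* at 0.34 before and 0.17 after and *CEBPB* at −0.36 and 0.05. *MMP9* was at 0.43 with *mmp13a* before and 0.05 after. In the opposite direction, *ccl34b.1* was at −0.47 with *mmp13a* before and −0.19 after, and *COTL1* at −0.41 and 0.13.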

How the data were processed

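Whole-embryo RNA was sequenced from its 3′ ends (BRB-seq, a barcoded and pooled library method). The authors' sequencing provider mapped and demultiplexed the reads, and the authors deposited raw counts of reads per gene, without normalization, for all 80 libraries. The aligner, genome build and annotation are not given in the sources used here. Reads of the 3′ end do not depend on gene length but cannot tell transcript forms apart.

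The deposited counts were analysed in R 4.3.3 with edgeR 4.0.16 and limma 3.58.1. A gene was kept if 2 or more libraries held 5 or more of its reads, counts were scaled by TMM, and a quasi-likelihood fit was made for the 40 libraries of each time with 10 groups, or for all 80 libraries with 20 groups for the comparison of times. P-values were adjusted over all genes tested by the Benjamini-Hochberg method, and adjusted values of 0.05 or less were called. Normalized counts are scaled to the mean effective library size of 6519461. Log2 CPM for the correlations used a prior count of 2, over genes with a mean of at least 10 counts. The alternatives tried were DESeq2 1.42.0, other scaling, other filters, a smaller set of libraries, the pool letter as a block and leaving out each pool.

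The 4 genes and the gene lists were chosen with earlier results of these data known. From the 9 immune lists the text names genes called in any exposure, up to 5 per list, and some of the 2 most abundant. Names in capitals are those of the human counterparts in the gene name table used. The *mpx* gene was matched through the human name *EPX*. The pool letters did not pair the pools: the mean correlation of deviations between pools of the same letter was −0.00013 at 48 hpf and −6.4e-05 at 72 hpf. No 2 libraries of the same group were identical, since the most similar pair within a group differed in 17935 genes. Pairs across groups were not compared. A self-test on simulated counts was run before the fits. It gave all genes the same setting for the spread between libraries and changed only genes above a low-count limit. No result here rests on it.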

Additional observations from a re-analysis of the deposited data

Results flagged for a closer look

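In 4 of the 80 groups of 4 pools, 20 for each of the 4 genes, the highest or lowest pool lay farther from the rest than Dixon's 95% critical value allows. Chance gives about 1 in 20 such groups. *lyz* at 13.3 µM BaP and 72 hpf was at 41.6 normalized counts in pool A, and the next pool was at 114.5. *mmp13a* at 1.33 µM BaP and 72 hpf was at 37.4 in pool D, and the next was at 19.97. *myb* at 1.33 µM 6-MBaP and 48 hpf was at 62.3 in pool D, and the next was at 55.0. *myb* in 72 hpf controls was at 48.3 in pool D, and the next was at 60.6.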

How the results depend on the processing

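The lower level of *lyz* at 72 than at 48 hpf in controls passed under every alternative run, with adjusted p-values between 9.6e-72 and 2.7e-13. With the pool letter as a replicate block it was −2.30, and with the block the other 3 genes did not pass and the counts of immune genes in 11 comparisons stayed within 1.5 times. Calls of single list genes were not run under the block. *lgals3bp.1* lay between −0.61 and 0.054 and *mmp13a* between −0.057 and 0.48 for the same comparison when single pools were left out, and neither passed. Against controls, all 72 values of the 4 genes moved by less than the spread between pools under each of the 6 other settings, and so did 575 of 576 with a pool left out, the exception being *lgals3bp.1* at 1.33 µM BaP and 48 hpf without BaP pool A, at −2.29.

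The counts of immune genes called depended on single pools and on the filter. For 8-MBaP at 13.3 µM they ranged from 2 to 6 with a pool left out at 48 hpf, where 4 were called, and from 4 to 7 at 72 hpf, where 8 were called. Under the other settings they were 4 to 5 and 8 to 10. With no filter on low counts, 1 gene was called at 13.3 µM 6-MBaP and 1 at 13.3 µM BaP at 48 hpf, in place of 0. At 13.3 µM BaP and 72 hpf the count of 1 became 0 with DESeq2 and 2 with no filter, and 0 to 1 with a pool left out. For 8-MBaP against BaP at 48 hpf the count of 1 became 2 with DESeq2, 2 with no filter and 0 with a fit limited to these groups, and 0 to 1 with a pool left out. For 8-MBaP against 6-MBaP the count of 5 at 48 hpf became 2 to 4 with a pool left out, and that of 4 at 72 hpf became 7 with no filter and 2 to 5 with a pool left out. The cause of these shifts was not tested. Counts of a few reads limit *lgals3bp.1* and *mmp13a*, and 4 pools per group limit all values.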

Other observations

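In control embryos the share of immune list genes called between the times was close to that of all genes. Of 140 tested genes of the 9 lists, edgeR called 32 between 72 and 48 hpf, beside 22.7% of all genes, 17 higher and 15 lower at 72 hpf, and the median log2 difference was 0.06, beside 0.02 over all genes tested. Complement genes held the most calls, with 4 higher and 7 lower of 19. Of the macrophage list 2 of 18 genes were called, both higher, and the median was 0.62, while the neutrophil list had a median of −0.55. Of 10 erythroid genes 4 were called, all lower, with a median of −1.56. Of 18 genes of the metalloproteinase list 4 were called, all higher, with a median of 0.26.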
